A study of Mus musculus with 35 samples.

Results

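The genes described here are the red blood cell genes of the newborn mouse kidney: the adult alpha globins Hba-a1 and Hba-a2, the adult beta globins Hbb-bs and Hbb-bt, and Alas2, Bpgm and Ahsp. They were taken from a list of 7 named genes, matched to the deposited counts by gene symbol and then by Ensembl identifier. Of the 7, 6 had a row among the 31053 genes counted in all 35 libraries, and Ahsp, whose product is a chaperone of free alpha globin, was not analysed here.

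Messenger RNA of whole kidneys was counted at postnatal day 2 in C57BL/6 mice of 3 crosses, to ask how loss of folliculin (Flcn), alone or together with the transcription factor genes Tfeb or Tfe3, changes the kidney before cysts form. Set A holds 5 libraries labelled Flcn KO (Ksp-cre+ with Flcn flox/flox), 5 of control Flcn (Flcn flox/flox), 4 labelled Flcn/Tfeb DKO (Ksp-cre+ with both Flcn and Tfeb flox/flox) and 3 of control Flcn/Tfeb. The libraries labelled Flcn/Tfe3 DKO (Ksp-cre+ with Flcn flox/flox and Tfe3-/-) were deposited in 2 tables, set B with 6 of them and 3 of control Flcn/Tfe3, and set C with 4 and 5. The alleles of the control Flcn/Tfeb and control Flcn/Tfe3 mice are not spelled out in the labels.

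Ksp-cre is driven by the Cdh16 promoter and is active in the tubule epithelium of the kidney, so the floxed alleles stay intact in blood cells, whereas the Tfe3 null allele is carried by every cell of the mouse. Each library held 1652649 to 4239356 gene counts (median 2992169), all 8 kidney epithelium markers examined were detected in every library, and no pair of libraries of one group agreed within sampling noise. The 3′ tags of the targeted genes did not tell the genotypes apart: Flcn differed from its controls by a log2 fold change of 0.088 in the libraries labelled Flcn KO, Tfeb by −0.73 in those labelled Flcn/Tfeb DKO and Tfe3 by −0.086 in those labelled Flcn/Tfe3 DKO, none called. Such tags may lie outside the deleted exons and then check nothing, so groups are named below as they were labelled.

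Haemoglobin is a tetramer of alpha and beta chains, each holding a haem group. In the mouse the alpha chains come from a gene cluster on chromosome 11 and the beta chains from a cluster on chromosome 7, where C57BL/6 mice carry the pair Hbb-bs and Hbb-bt. Alas2 makes the erythroid form of the enzyme that starts haem synthesis, and Bpgm makes 2,3-bisphosphoglycerate, the metabolite that lowers the oxygen affinity of haemoglobin in red cells. Mature mouse red cells have no nucleus, and the globin messenger RNA of whole blood comes mostly from reticulocytes, the young red cells that still carry RNA. In a whole organ, most globin transcripts are taken to come from the blood left in its vessels.

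The 4 globin genes stand as tandem pairs. In mm10 (GENCODE release M21) Hba-a1 (ENSMUSG00000069919) lies on the plus strand at chr11:32283511-32284465 and Hba-a2 (ENSMUSG00000069917) 12024 bases further along at chr11:32296489-32297298. Hbb-bs (ENSMUSG00000052305) lies on the minus strand at chr7:103826534-103828096, and Hbb-bt (ENSMUSG00000073940) on the same strand at chr7:103812524-103813996, 12538 bases away. Alas2 (ENSMUSG00000025270) is on the plus strand of the X chromosome, chrX:150547375-150570638, and Bpgm (ENSMUSG00000038871) on the plus strand at chr6:34476207-34505613. All 6 are protein-coding genes.

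The 150 bases before the RefSeq transcription start are shown because the globins and Alas2 varied together between libraries while Bpgm did so less closely. They are given from RefSeq's GRCm38.p6 (mm10) in the direction of transcription, with capitals at each match, on either strand, to GATAA (the core of a GATA site), CACCC (the box bound by KLF factors), CCAAT (the box of that name), TATAA (the TATA box letters) or CACGTG (the E-box letters within the site bound by TFEB and TFE3). All 6 genes with a row matched a RefSeq entry by symbol, and no match overlapped another. The GENCODE models of all 6 genes start upstream of the RefSeq start. The windows of Hba-a1 and Hbb-bs therefore lie wholly inside the gene model, that of Bpgm nearly so, those of Hbb-bt and Alas2 in part, and that of Hba-a2 with its last 3 bases. The window of Hba-a1 (chr11:32283522-32283671) shares an identical run of 147 bases with that of Hba-a2 and holds the same 3 matches, so 1 of this pair is shown.
Hba-a2, chr11:32296342-32296491, plus strand: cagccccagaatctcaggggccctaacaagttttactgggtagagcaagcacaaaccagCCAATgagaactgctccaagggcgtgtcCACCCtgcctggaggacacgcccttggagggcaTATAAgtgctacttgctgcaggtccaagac
Hbb-bs, chr7:103827929-103828078, minus strand: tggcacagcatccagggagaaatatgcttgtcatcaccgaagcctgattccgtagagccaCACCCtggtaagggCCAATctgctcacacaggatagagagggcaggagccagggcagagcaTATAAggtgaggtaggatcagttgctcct
Hbb-bt, chr7:103813924-103814073, minus strand: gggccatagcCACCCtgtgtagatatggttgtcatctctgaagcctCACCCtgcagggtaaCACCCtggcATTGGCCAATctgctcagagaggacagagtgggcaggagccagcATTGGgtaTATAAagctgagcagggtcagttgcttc
Alas2, chrX:150547267-150547416, plus strand: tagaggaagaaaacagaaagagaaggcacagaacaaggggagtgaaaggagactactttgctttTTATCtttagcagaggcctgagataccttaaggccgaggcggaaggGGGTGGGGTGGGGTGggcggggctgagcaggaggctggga
Bpgm, chr6:34476206-34476355, plus strand: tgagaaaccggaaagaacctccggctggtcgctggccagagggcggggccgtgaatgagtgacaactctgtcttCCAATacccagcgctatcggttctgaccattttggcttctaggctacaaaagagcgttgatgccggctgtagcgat

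All 4 globin windows held CACCC together with CCAAT and also TATAA, with TATAA beginning 27 to 30 bases before the start. Alas2 held GATAA on the other strand, beginning 86 bases before the start, and 3 matches to CACCC on the other strand, and Bpgm held CCAAT alone. None held CACGTG. Among the 32851 RefSeq windows of this length, 37.4% held CACCC, 24.5% CCAAT, 14.2% TATAA, 13.3% GATAA and 4.30% CACGTG. The letters describe these windows only and show no binding.

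The similarity of the pairs bears on their counts. The last 300 bases of the longest coding transcripts of Hba-a1 and Hba-a2 were 89.6% identical, with an identical run of 161 bases, and those of Hbb-bs and Hbb-bt were 86.1% identical, with a run of 140 bases. Both runs exceed the read length of 100 bases, and the deposited counts hold only reads aligned to a single place. Within each pair the split of the counts is therefore uncertain, and each count leaves out an unknown number of shared reads. Counts are printed below as counts per 1000000 gene counts (CPM). They count 3′ ends and were not divided by length, so they are compared between libraries and, as ratios of counts and not of molecules, between genes.

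Adult globin made up 0.146% to 1.15% of all gene counts, with a median of 0.445% over the 35 libraries. The exact binomial 95% intervals (Clopper-Pearson) ran from 0.142% to 0.150% for the lowest library and from 1.14% to 1.16% for the highest. These intervals cover counting error only and are narrow beside the spread between libraries. Over all libraries Hbb-bs ranged from 656 to 5074 CPM, Hba-a1 from 383 to 2817, Hbb-bt from 133 to 1718 and Hba-a2 from 248 to 1886. Alas2 ranged from 5.87 to 54.4 CPM and Bpgm from 13.9 to 41.9. The transcripts of the globins thus differed between kidneys of one age by several fold, while Bpgm spanned a narrower range. Fewer red cells in the tissue and less of these RNAs in each cell cannot be told apart in bulk libraries.

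**Figure D1:**
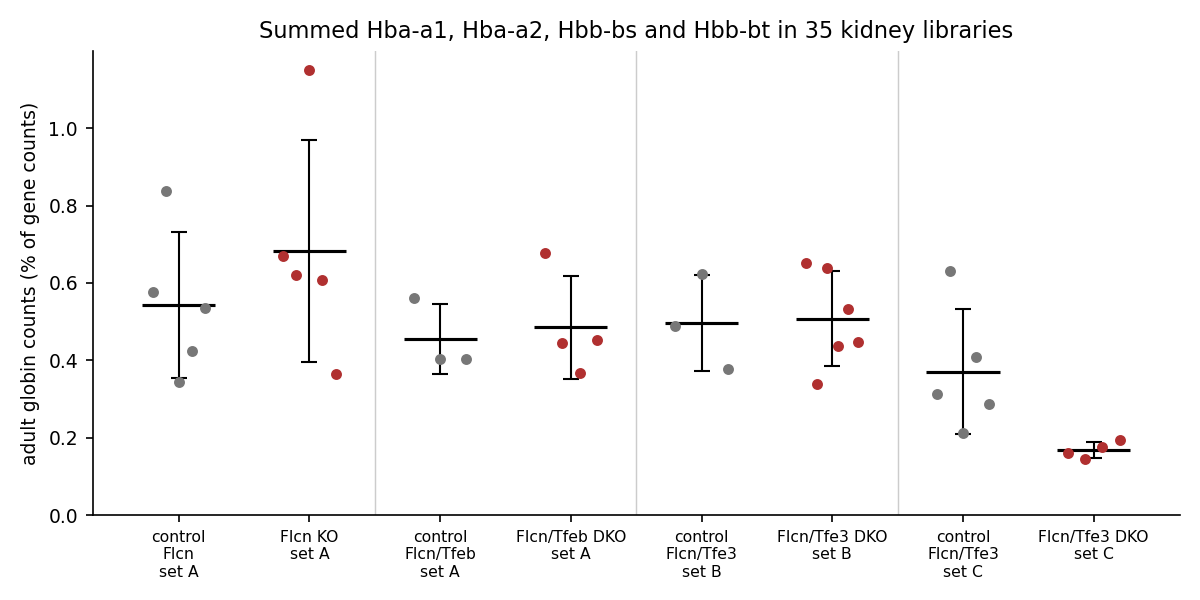
Percentage of gene counts on the 4 adult globin genes (vertical axis) for each of the 35 libraries, by group and set (horizontal axis), with points for libraries and bars for the group mean and SD. The 4 libraries labelled Flcn/Tfe3 DKO of set C sit between 0.146% and 0.194%, all under the 5 controls of that set (0.213% to 0.630%).

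Ordered by median, the groups ended alike for the globins and Alas2, but not for Bpgm. The libraries labelled Flcn/Tfe3 DKO of set C had the lowest median of all 8 groups for Hba-a1 (484 CPM), Hba-a2 (287 CPM), Hbb-bs (731 CPM), Hbb-bt (171 CPM) and Alas2 (10.6 CPM). The highest median was that of the libraries labelled Flcn KO for Hba-a1 (1383 CPM), Hbb-bs (2902 CPM), Hbb-bt (1021 CPM) and Alas2 (43.2 CPM), and that of control Flcn for Hba-a2 (878 CPM). Bpgm had its lowest median in Flcn/Tfeb DKO (18.6 CPM) and its highest in the set B controls (38.7 CPM), with 24.0 CPM in Flcn KO and 31.2 CPM in Flcn/Tfe3 DKO of set C. Hbb-bs in the 6 groups between ran from a median of 1614 CPM in the set C controls through 2156 in control Flcn, 2299.8 in control Flcn/Tfeb, 2408 in the set B controls and 2566 in Flcn/Tfeb DKO to 2864 in Flcn/Tfe3 DKO of set B. Each of these 6 overlapped its neighbours in that order, whereas the Flcn/Tfe3 DKO libraries of set C lay below the set C controls without overlap. The groups of different sets were deposited in different files, so tests were made within a set or with the set as a term.

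**Figure D2:**
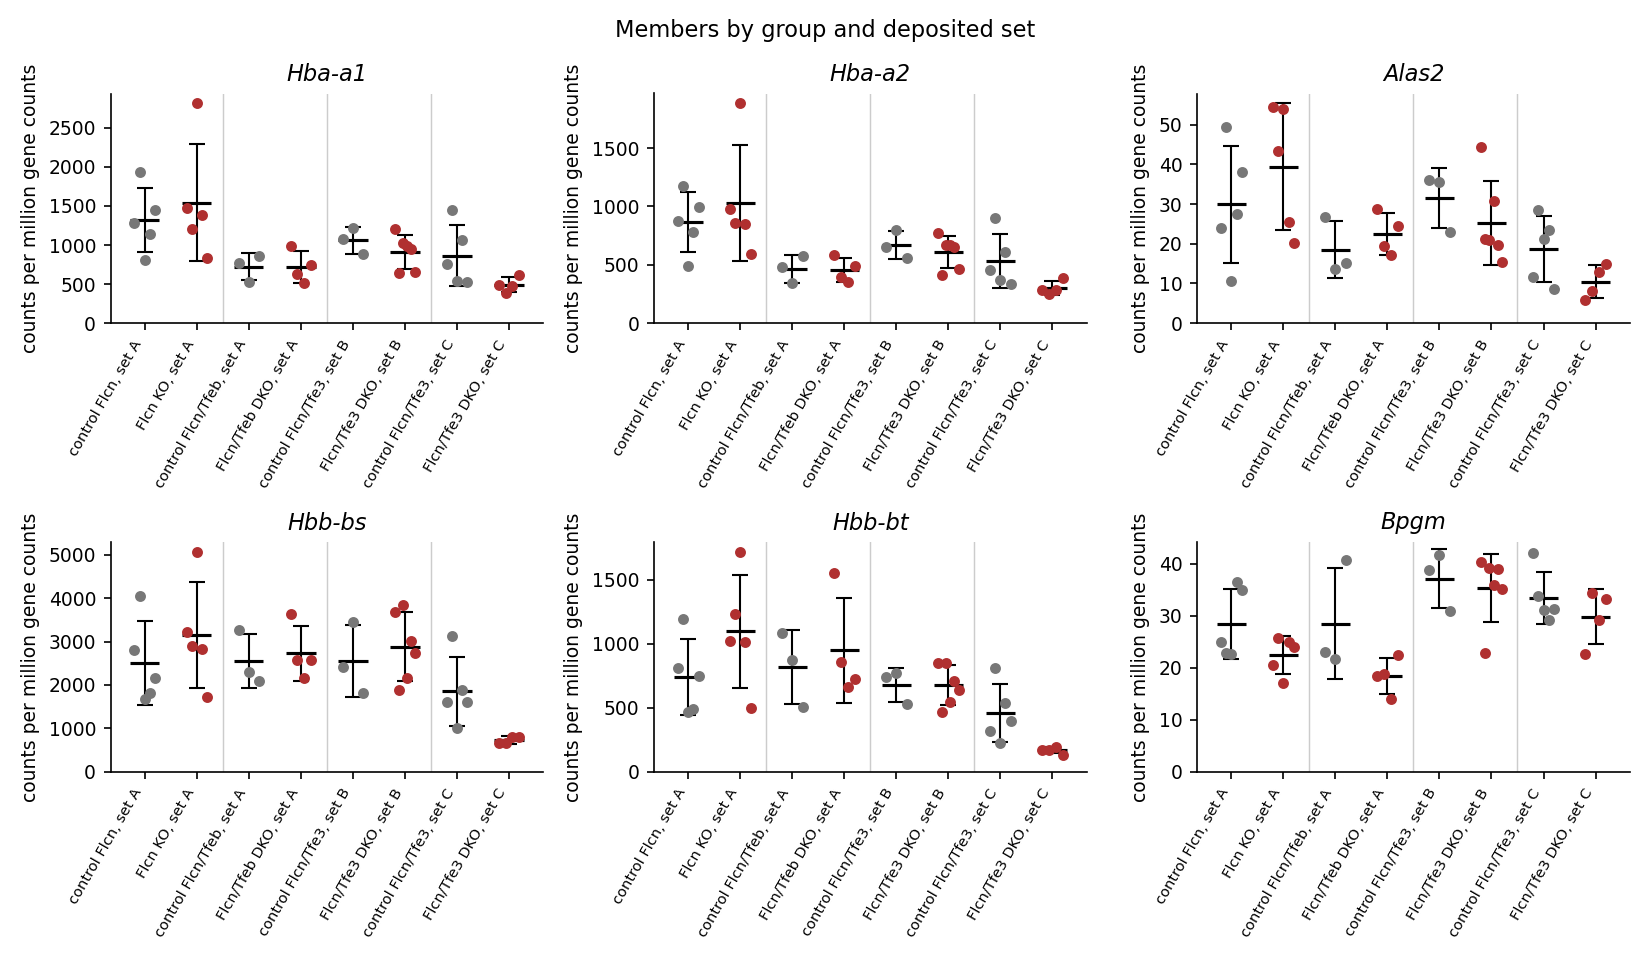
CPM of the 6 measured genes (vertical axes, linear scale, 1 panel a gene) in each library, by group and set. The 4 globins and Alas2 have their lowest group medians in the libraries labelled Flcn/Tfe3 DKO of set C, and Bpgm stays between 13.9 and 41.9 CPM.

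Loss of Flcn alone was examined first. None of the 6 genes was called between the libraries labelled Flcn KO and control Flcn, where called means an adjusted p under 0.05 in edgeR's quasi-likelihood test with Benjamini-Hochberg adjustment over all genes tested. No member reached an unadjusted p under 0.05 in edgeR, and DESeq2 called none. The test called 0.52% of all 11932 genes, with 54 higher and 8 lower in the libraries labelled Flcn KO. The 5 globin and Alas2 values lay above 0 and Bpgm below it, with a median over the 6 of 0.35 on the log2 scale beside −0.0074 over all genes tested.

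For the alpha globin Hba-a1 the 5 libraries labelled Flcn KO held 1476, 1211, 2817, 1383 and 833 CPM and the 5 controls 1276, 1932, 812, 1140.3 and 1445 CPM. The groups overlapped over most of their range, with 1 high library, Flcn KO replicate 3. The log2 fold change was 0.29 ± 0.28 (SE), with a 95% interval from −0.26 to 0.83, and the second alpha gene, Hba-a2, gave 0.32 ± 0.27 (−0.21 to 0.85).

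For the beta globin Hbb-bt the libraries labelled Flcn KO held 1021, 1232, 1718, 1014 and 502 CPM and the controls 810.4, 1198, 468, 488 and 747 CPM. Flcn KO replicates 2 and 3 were above every control, and Flcn KO replicate 5 was below 3 of them. The log2 fold change was 0.61 ± 0.29 (0.037 to 1.19, edgeR p = 0.0515, adjusted p = 0.553), the largest of the 6 in this cross. That interval, a normal approximation, lay above 0, though the edgeR p was not under 0.05. Hbb-bs, the other beta gene, gave 0.37 ± 0.28 (−0.18 to 0.93).

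The haem enzyme gene Alas2 held 54.4, 43.2, 53.8, 25.5 and 20.1 CPM in the libraries labelled Flcn KO and 24.0, 49.3, 10.6, 27.5 and 38.2 CPM in the controls. Again the groups overlapped, and the log2 fold change was 0.45 ± 0.31 (−0.16 to 1.06). Bpgm held 20.5, 25.7, 17, 24.9 and 24.0 CPM against 24.9, 22.9, 22.7, 36.5 and 34.9 CPM, with 2 controls above all other libraries, and a log2 fold change of −0.28 ± 0.16 (−0.60 to 0.035). Globins made up 0.682% ± 0.287 (SD, n = 5) of the counts for Flcn KO, against 0.543% ± 0.188 (SD, n = 5) for control Flcn.

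In the cross with Tfeb, none of the 6 genes was called when the libraries labelled Flcn/Tfeb DKO were set against control Flcn/Tfeb, and none had an unadjusted p under 0.05. No gene of the 12469 tested was called (0%) by edgeR or by DESeq2, and 632 had an unadjusted p under 0.05 in edgeR. With 4 libraries against 3 the power was low: on counts simulated for this comparison with 200 genes changed 2-fold, 26 of the 200 were called, against 157 in the Flcn KO comparison and 174 in the Flcn/Tfe3 comparison. The median over the 6 was 0.15 on the log2 scale, beside −0.017 over all genes tested.

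Hba-a1 held 992, 629, 514 and 743 CPM in the libraries labelled Flcn/Tfeb DKO and 773, 532 and 863 CPM in the controls. Hbb-bs held 3638, 2566, 2151 and 2566 CPM against 3272, 2299.8 and 2086 CPM. Both ranges overlapped almost fully, and the log2 fold changes were 0.12 ± 0.25 (−0.36 to 0.60) and 0.18 ± 0.29 (−0.38 to 0.75).

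Hba-a2 gave 0.095 (−0.34 to 0.53), Hbb-bt 0.27 (−0.45 to 0.99) and Alas2 0.40 (−0.22 to 1.02) on the same scale. Bpgm held 18.4, 18.8, 13.9 and 22.5 CPM in the libraries labelled Flcn/Tfeb DKO and 22.9, 21.7 and 40.8 CPM in the controls. Its highest values were in the controls, with control replicate 3 apart from the others. The log2 fold change of Bpgm was −0.49 ± 0.25 (−0.98 to −0.0026, edgeR p = 0.0746, adjusted p = 0.798). The globin share was 0.485% ± 0.133 (SD, n = 4) against 0.456% ± 0.0904 (SD, n = 3).

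In the cross with Tfe3 all 6 log2 fold changes lay below 0 when sets B and C were fitted together with the set as a term, and none was called by edgeR or DESeq2. The test called 0.385% of 12456 genes, with 43 higher and 5 lower in the libraries labelled Flcn/Tfe3 DKO. Here 5 of the 6 members had an unadjusted p under 0.05 in edgeR, as did 7.15% of all genes tested: Hbb-bt with −0.89 ± 0.29 (p = 0.00448, adjusted p = 0.330), Hbb-bs with −0.76 ± 0.29, Hba-a1 with −0.64 ± 0.21, Hba-a2 with −0.61 ± 0.21 and Alas2 with −0.62 ± 0.25. Their adjusted p-values ran from 0.330 to 0.515. Bpgm gave −0.20 ± 0.13 (edgeR p = 0.140). The median over the 6 was −0.63, beside 0.0090 over all genes tested.

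The 2 tables gave unlike values. In set B alone, none of the 6 was called (0.0606% of 13191 genes were) and none had an unadjusted p under 0.05. In set C alone 4 of the 6 were called, all lower in the libraries labelled Flcn/Tfe3 DKO: Hba-a1, Hba-a2, Hbb-bs and Hbb-bt. Set C had far more calls throughout, 4.68% of 12169 genes, of which 460 were lower and 109 higher. In the test of the difference between the sets, Hbb-bs and Hbb-bt were called, as were 1.3% of 12456 genes.

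**Figure D3:**
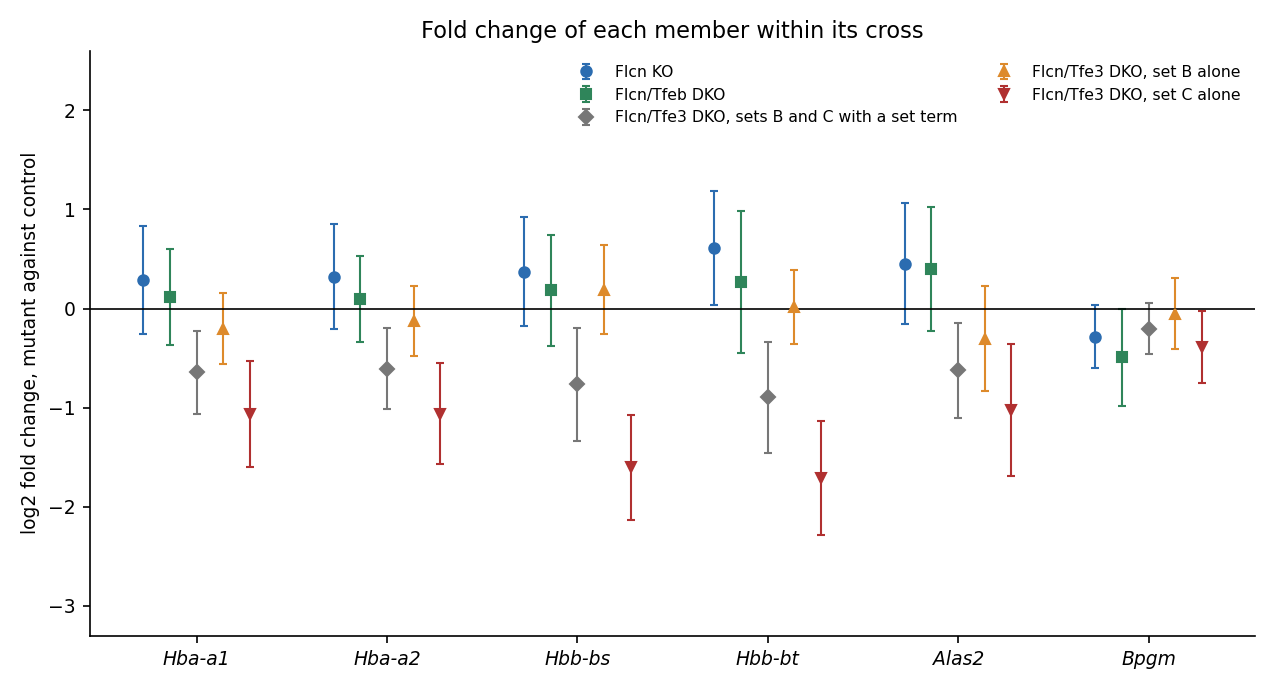
Log2 fold change (vertical axis) of each measured gene (horizontal axis) in the 3 crosses and in sets B and C of the Flcn/Tfe3 cross. Bars are 95% intervals (normal approximation from the SE). In set B the intervals of all 6 genes span 0, whereas in set C the 4 globins lie between −1.06 and −1.71.

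In set B, Hbb-bs ranged over 1872, 2864 and 3851 CPM (lowest, median and highest) in the 6 libraries labelled Flcn/Tfe3 DKO, and was 2408, 3457 and 1809 CPM in the 3 controls. In set C it was 662, 656, 800.0 and 803 CPM in the 4 libraries labelled Flcn/Tfe3 DKO and 1614, 3137, 999, 1892 and 1611 CPM in the 5 controls. The set B groups overlapped, and in set C every library labelled Flcn/Tfe3 DKO lay below every control. In set B the log2 fold change was 0.19 ± 0.23 (−0.26 to 0.64), and set C gave −1.60 ± 0.27 (edgeR adjusted p = 0.00686, −2.13 to −1.07). Their difference, fitted over both sets, was −1.74 ± 0.40 (edgeR adjusted p = 0.0428).

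Hbb-bt followed its neighbour. In set B it was 469, 675 and 854 CPM (lowest, median and highest) in the libraries labelled Flcn/Tfe3 DKO and 740.4, 769 and 526 CPM in the controls. In set C it was 172, 170.1, 191 and 133 CPM against 320.2, 809.6, 225, 539.9 and 393 CPM. The groups overlapped in set B and did not in set C. In set B the log2 fold change was 0.017 ± 0.19, and set C gave −1.71 ± 0.30 (edgeR adjusted p = 0.00785), and the difference between sets was −1.68 ± 0.40 (edgeR adjusted p = 0.0429).

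The alpha globins had smaller values. Hba-a1 in set C was 487, 383, 480.4 and 617 CPM in the libraries labelled Flcn/Tfe3 DKO and 755, 1453, 536, 1060.4 and 525 CPM in the controls. Replicate 10 of the former lay above controls 6 and 8, so the groups overlapped. The log2 fold change was −1.07 ± 0.27 (edgeR adjusted p = 0.0301) in set C and −0.21 ± 0.18 in set B.

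Hba-a2 in set C was 289, 248, 286 and 389 CPM against 453, 903, 366, 606 and 335 CPM. It overlapped in the same way as Hba-a1. Its log2 fold change was −1.06 ± 0.26 (edgeR adjusted p = 0.0249), against −0.13 ± 0.18 in set B. The differences between the sets, −0.81 ± 0.37 for Hba-a1 and −0.89 ± 0.36 for Hba-a2, were not called (edgeR adjusted p = 0.200 and 0.151).

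Alas2 in set C was 5.87, 8.16, 13 and 14.9 CPM in the libraries labelled Flcn/Tfe3 DKO and 11.5, 28.5, 21.2, 23.4 and 8.59 CPM in the controls. The groups overlapped, and the log2 fold change of −1.02 ± 0.34 missed the threshold (edgeR p = 0.00726, adjusted p = 0.0878). Bpgm was 22.6, 34.3, 29.1 and 33.3 CPM against 41.9, 33.7, 31.0, 29.2 and 31.3 CPM. Its log2 fold change was −0.38 ± 0.19 (−0.75 to −0.021, edgeR p = 0.0516). In set B these genes gave −0.30 (−0.83 to 0.23) and −0.051 (−0.41 to 0.31).

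The globin share was 0.169% ± 0.0208 (SD, n = 4) in the set C libraries labelled Flcn/Tfe3 DKO and 0.371% ± 0.161 (SD, n = 5) in their controls. In set B it was 0.508% ± 0.123 (SD, n = 6) and 0.497% ± 0.123 (SD, n = 3), and within sets together the difference was −0.101 percentage points. The 4 low libraries were thus also the most uniform group. They differed from the set C controls in library measures as well, with 3159884 to 3555791 gene counts against 1719367 to 2909353, which do not overlap. Reads in no gene made up 7.92% to 10.5% of their reads against 8.78% to 18.4%, and reads not aligned to 1 place 33.7% to 36.1% against 35% to 42.5%. The part of these measures in the globin difference was not tested.

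Scaling mattered to the size of these values in set C. With library totals in place of trimmed-mean (TMM) factors, the median log2 fold change of all genes tested in set C moved from −0.0027 to 0.20, and the called genes went from 460 lower and 109 higher to 206 lower and 358 higher. The globin values moved by a like amount: Hbb-bs went from −1.60 to −1.34, Hbb-bt from −1.71 to −1.46, Hba-a1 from −1.07 to −0.82 and Hba-a2 from −1.06 to −0.81. Under library totals Hba-a1 was no longer called in set C (edgeR adjusted p = 0.0549), nor were the differences between sets of Hbb-bs and Hbb-bt (edgeR adjusted p = 0.0566 for each). Hbb-bs was called in set C with any 1 of the 9 libraries left out and Hbb-bt with any but Flcn/Tfe3 DKO replicate 10 (edgeR adjusted p = 0.0512). Hba-a1 was called in 2 and Hba-a2 in 4 of these 9 fits, and the differences between sets of Hbb-bs and Hbb-bt were called in 6 and 4 of 18.

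Whether the effect of one genotype on these genes differed from that of another was tested directly, with each effect taken against its own controls. Between Flcn/Tfeb DKO and Flcn KO no member was called (0.0153% of 13049 genes were), the differences on the log2 scale running from −0.35 for Hbb-bt to −0.042 for Alas2, and no member had an unadjusted p under 0.05. Between Flcn/Tfe3 DKO and Flcn KO no member was called and no gene was (0% of 13209), by edgeR or DESeq2, while 978 genes had an unadjusted p under 0.05 in edgeR. The 4 globins and Alas2 were among those 978, at −0.93 ± 0.38 for Hba-a1, −0.92 ± 0.37 for Hba-a2, −1.14 ± 0.46 for Hbb-bs, −1.50 ± 0.46 for Hbb-bt and −1.06 ± 0.43 for Alas2, each with an edgeR adjusted p of 0.661.

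Between Flcn/Tfe3 DKO and Flcn/Tfeb DKO no member was called either (0.022% of 13637 genes were). Hbb-bt (−1.17 ± 0.52) and Alas2 (−1.05 ± 0.47) had unadjusted p-values of 0.0325 and 0.0321 in edgeR, each with an adjusted p of 0.377, and 12.2% of all genes had an unadjusted p under 0.05. Bpgm lay on the other side of 0 in both comparisons with Flcn/Tfe3 DKO, at 0.083 and 0.28. DESeq2 called no member in these 3 comparisons. The comparisons with Flcn/Tfe3 DKO also put libraries of different sets against each other. Genotype and set cannot be told apart there beyond what the controls of each set remove.

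The split within each globin pair was steadier than the level. Hba-a2 held 36.4% to 41.5% of the alpha counts in all 35 libraries (SD 1.41 percentage points). Hbb-bt held 14.2% to 29.9% of the beta counts (SD 3.51), a wider range. For Flcn KO the Hbb-bt share was 25.7% ± 2.70 (SD, n = 5) against 22.8% ± 1.78 (SD, n = 5) for control Flcn, which did not pass a two-sided exact permutation test (p = 0.0873, adjusted p = 0.442 over the 9 tests of this family).

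For Flcn/Tfeb DKO the Hbb-bt share was 25.1% ± 3.41 (SD, n = 4), against 24.0% ± 4.0 (SD, n = 3) for control Flcn/Tfeb (exact permutation p = 0.714). For Flcn/Tfe3 DKO the difference within sets was −1.46 percentage points (exact permutation p = 0.184). It was 19.2% against 21.4% in set B and 18.7% against 19.5% in set C. None of these differences had an exact permutation p under 0.05 with all libraries in.

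The ratio of alpha to beta counts varied far more, from 0.276 to 1.08. It was lowest in the Flcn/Tfeb cross, with 0.303, 0.299, 0.307 and 0.375 in the libraries labelled DKO and 0.288, 0.276 and 0.555 in the controls. It was highest in the set C libraries labelled Flcn/Tfe3 DKO, with 0.931, 0.764, 0.773 and 1.08, against 0.625, 0.597, 0.737, 0.685 and 0.429 in their controls. In set C the 2 groups did not overlap, and the exact two-sided permutation test gave p = 0.0159 without adjustment, where the smallest p that 4 against 5 libraries allow is 0.00794. In set B the ratio was 0.438 ± 0.0978 (SD, n = 6) against 0.549 ± 0.0708 (SD, n = 3), in the opposite direction (exact permutation p = 0.119). Within sets together the difference was 0.0899 (exact permutation p = 0.245), and in the Flcn KO cross it was −0.0936 (exact permutation p = 0.222).

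**Figure D4:**
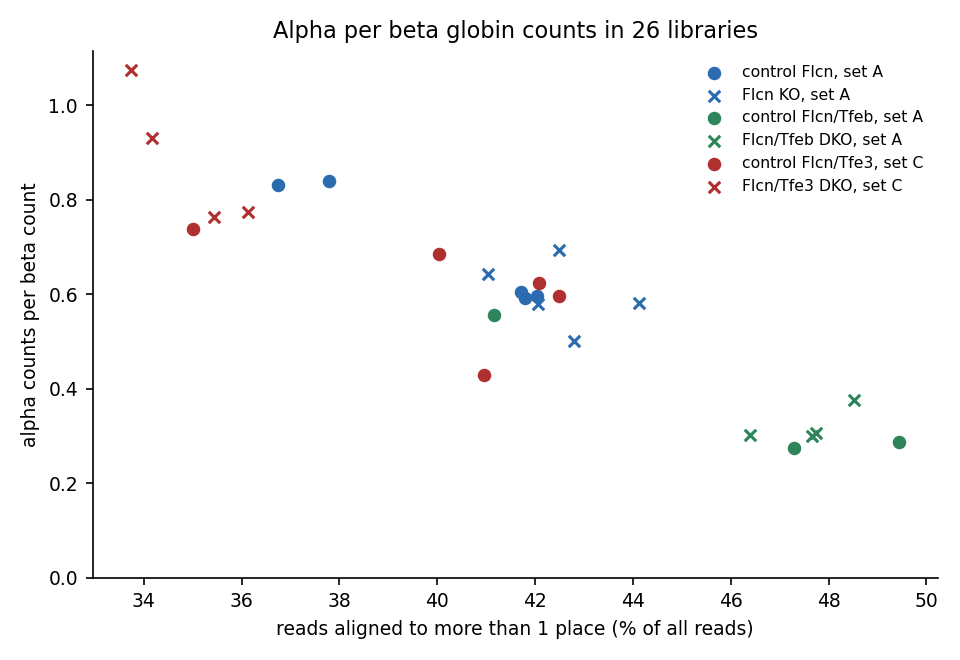
Ratio of alpha to beta globin counts (vertical axis) against the percentage of reads not aligned to 1 place (horizontal axis) in the 26 libraries that have the tally, coloured by group. Libraries with more such reads have a lower ratio, from 1.08 at 33.7% to 0.276 at 47.3%.

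This ratio moved with the share of reads that did not align to 1 place, which is recorded for the 26 libraries of sets A and C. Those reads made up 36.7% to 44.1% in the Flcn KO cross, 41.2% to 49.4% in the Flcn/Tfeb cross and 33.7% to 42.5% in set C, where the libraries labelled Flcn/Tfe3 DKO held 33.7% to 36.1%. With group and set removed by centring, the log2 ratio and this share had r = −0.73 (permutation p = 0.00261, adjusted p = 0.00348) and rho = −0.66 (permutation p = 0.00387). Without the 2 libraries farthest from the median share, r was −0.61. Within set A r was −0.82 (permutation p = 0.0187) and within set C −0.56 (permutation p = 0.206). The part of these reads in the difference of the alpha to beta ratio between the set C groups was not tested.

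Within groups the members varied together to unequal degrees. On a log2 scale, with group and set removed by centring and globins left out of the library total, alpha and beta globin had r = 0.81 (permutation p = 1e-05, the smallest that 100000 resamples can give, adjusted p = 4e-05) and rho = 0.74 (permutation p = 2e-05) over the 35 libraries. Without the 2 libraries farthest from the median, r was 0.74. Within sets A, B and C r was 0.82, 0.74 and 0.84. Alas2 followed alpha globin with r = 0.74 (permutation p = 2e-05, adjusted p = 4e-05) and rho = 0.72 (permutation p = 5e-05), and r was 0.73 without the 2 farthest libraries.

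For Alas2 the relation was r = 0.79 in set A and 0.74 in set B. In set C it was 0.66, and 0.35 without the 2 farthest libraries, so there it rested on them. For Bpgm no relation with alpha globin was found over all libraries, with r = 0.17 (permutation p = 0.363, adjusted p = 0.363) and rho = 0.21 (permutation p = 0.274), and r was 0.33 without the 2 farthest libraries. It was r = 0.82 in set B alone (permutation p = 0.00081) and 0.012 and 0.038 in sets A and C. These 3 relations and the one with reads not aligned to 1 place make a family of 4.

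Of 10980 other genes with a mean of at least 5 CPM in every set, the ones whose levels were most like those of the summed globins over the 35 libraries, by Pearson's r on the same centred log2 scale, were Rarres2 (0.66), Cars2 (0.65), Mrpl50 (0.64), Gm5483 (0.62), Gpsm1, Mob1b, Hace1, Ap4s1 and Nudt13 (0.58 each) and Snrpg (0.56). The median r over all genes was −0.13. Alas2 had 0.67 on that scale and Bpgm 0.036. These values are given without a test, and the genes share libraries and depth.

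The other globins of the clusters were close to absent. Hbb-y, Hbb-bh1 and Hbb-bh2, embryonic and fetal beta-type genes, had 0 counts in all 35 libraries, and Hba-x, the embryonic zeta globin, had 4 counts in total. Hbq1a and Hbq1b, theta globins, had 14 and 18 counts. Not one of these 6 passed the filter on low counts in any comparison. Cygb, the cytoglobin of fibroblast-like cells and no red cell gene, had a mean of 129 CPM.

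The haem synthesis list (10 genes, all tested in every comparison) held enzymes of a pathway that every cell uses, and mitochondrial transporters. It had no call in any cross. Its most abundant members were Cpox (mean 80.1 CPM), Alad (72.7 CPM), Urod (58.7 CPM) and the mitochondrial iron importer Slc25a37 (39.7 CPM). In set C 4 of the 10 had an unadjusted edgeR p under 0.05, all with values below 0, among them Ppox at −0.76, Slc25a38 at −0.79 and Uros at −1.04. Such a p was common in set C, where 21.3% of all genes tested had one. The median of the list in set C was −0.17, beside −0.0027 over all genes tested, and it was 0.11 for Flcn KO, 0.12 for Flcn/Tfeb DKO and 0.054 in set B.

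Of the 17 red cell membrane genes, 6 passed the filter on low counts in set C and none was called, and all 6 values lay above 0 with a median of 0.37. That list thus lay on the other side of 0 from the globins. Of its 6 genes, 1 had an unadjusted edgeR p under 0.05, beside 21.3% of all genes tested: Tmod1, an actin-capping protein, at 1.12 (edgeR p = 0.0448). The most abundant members were Epb41 (111 CPM), Dmtn (22.8 CPM) and Slc4a1 (16.9 CPM), the anion exchanger of red cells, which acid-secreting cells of the kidney collecting duct also make. In the Flcn KO cross 5 were tested and none called, Slc4a1 had 0.68 with an unadjusted edgeR p of 0.0116, and the median was −0.048.

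Erythroid transcription factors gave few counts, 34 in total for Gata1 and 115 for Klf1. None of the 4 tested in set C was called, and Zfpm1, a cofactor of GATA1, had 0.59 with an unadjusted edgeR p of 0.0305, above 0 while the other 3 lay below it. Of the late red cell enzymes and clearance genes, 10 were tested in set C and none called. Of these, 9 had values below 0, and the list median was −0.21. Prdx2 (peroxiredoxin 2) at −0.48 and Ube2l6 at −0.83 had an unadjusted edgeR p under 0.05. These 2 of 10 are no larger a share than the 21.3% of all genes. Of 7 iron genes tested in set C, none was called, and 6 had values below 0, with a list median of −0.22. Tfrc, the transferrin receptor, had −0.45 (unadjusted edgeR p = 0.0352). None of these 3 lists had a call in the Flcn KO, Flcn/Tfeb or pooled Flcn/Tfe3 comparison either.

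Genes of other blood cells were read beside the globins. S100a8 and S100a9, the calprotectin genes of neutrophils, were the 2 of 7 neutrophil genes tested in set C, and both were called lower, with log2 fold changes of −1.98 ± 0.41 (edgeR adjusted p = 0.0114) and −2.35 ± 0.43 (edgeR adjusted p = 0.00817). The sum of the 7 was 14.7 to 24.6 CPM in the set C libraries labelled Flcn/Tfe3 DKO and 16.8 to 164 CPM in their controls, so the groups overlapped. In set B it was 66.3 to 200.6 CPM against 59.9 to 312 CPM, and none of the 6 tested was called. In the fit of both sets together 4 neutrophil genes were tested and none called, and all 4 had values below 0 with an unadjusted edgeR p under 0.05 and a median of −1.27, beside the lower globin values there.

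In the Flcn KO cross S100a8 and S100a9 had 0.92 and 0.88 (unadjusted edgeR p = 0.0145 and 0.0311), not called, with a summed neutrophil level of 60.9 to 179 CPM against 30.3 to 114 CPM. In the Flcn/Tfeb cross 3 neutrophil genes were tested and none called, their median was 1.15, and 2 of them had an unadjusted edgeR p under 0.05 (5.07% of all genes did), both with values above 0. For Flcn/Tfe3 DKO less Flcn KO 3 of 4 tested, and less Flcn/Tfeb DKO 5 of 6, had values below 0 with an unadjusted edgeR p under 0.05, and none was called. The neutrophil defining genes Elane and Mpo had 62 and 137 counts over all 35 libraries.

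The platelet genes Pf4 (−0.86) and Itga2b (−0.83), the 2 of 7 tested in set C, had unadjusted edgeR p-values of 0.00431 and 0.0438 and were not called. Their list summed to 19.4 to 28.9 CPM against 22.3 to 52.9 CPM. No lymphocyte gene passed the filter in set C, where the 8 summed to 2.80 to 9.49 CPM against 4.65 to 16.8 CPM, and Cd79a and Cd3e, which define B and T cells, had 6 and 18 counts over all libraries. The part of these cells' content in the globin difference was not tested.

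**Figure D5:**
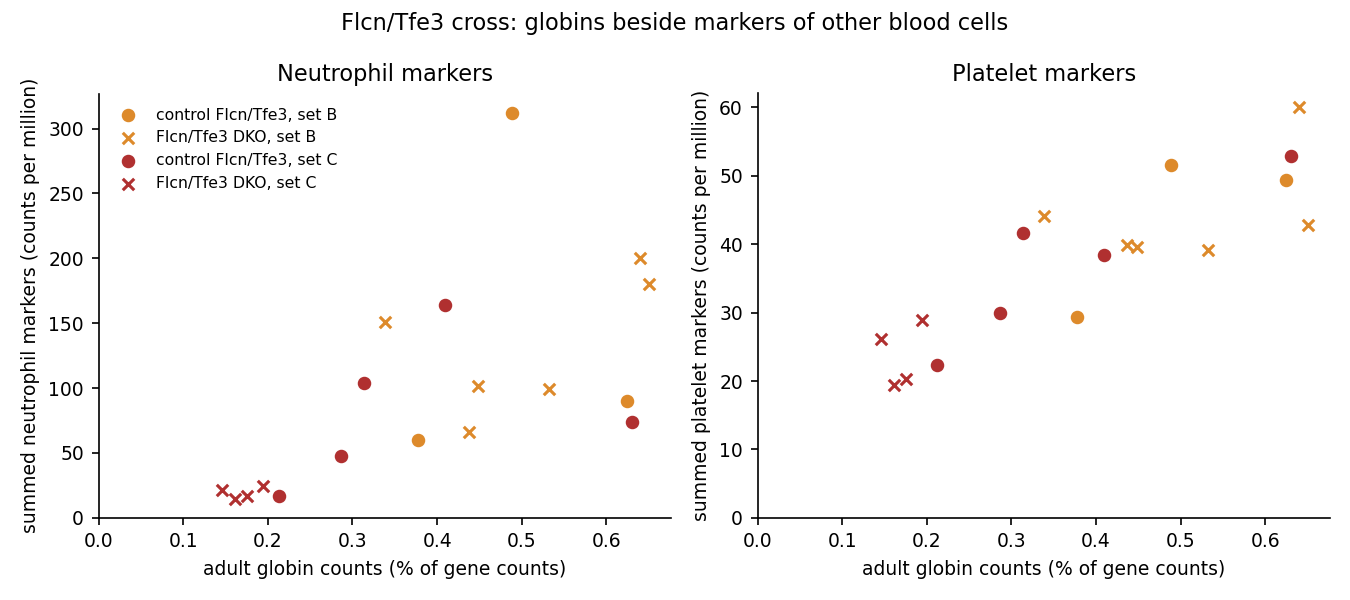
Summed CPM of the neutrophil list and of the platelet list (vertical axes, separate panels) against the percentage of gene counts on the adult globins (horizontal axes). Points are the libraries of the Flcn/Tfe3 cross, by group and set. In set C the neutrophil sum of the libraries labelled Flcn/Tfe3 DKO lies at 14.7 to 24.6 CPM, at the low end of the controls (16.8 to 164 CPM).

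Genes of cells that stay in the tissue were read in the same way in set C. Of 7 macrophage genes 5 were tested and none called, with a median log2 fold change of −0.13, 2 values above 0 and 3 below, and the sum of the 7 was 64.8 to 111 CPM in the libraries labelled Flcn/Tfe3 DKO and 62.7 to 89.1 CPM in the controls. All 6 endothelial genes were tested, none was called, and the median log2 fold change was 0.14, with a sum of 454 to 572 CPM against 343 to 529 CPM. Among 8 kidney epithelium genes, Umod, the thick limb's uromodulin, was called higher (0.75 ± 0.14) and Aqp2, the water channel of the collecting duct, lower (−0.61 ± 0.15) in set C. Umod was also called higher in the Flcn KO cross (1.0 ± 0.12) and in the pooled Flcn/Tfe3 fit (0.71 ± 0.10), where no globin was called.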

How the data were processed

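Per the labels, 100 ng of kidney RNA per library was made into 3′ libraries (QuantSeq) and read as single 100-base reads. The authors trimmed the reads, aligned them to mm10 with STAR and counted uniquely aligned reads per gene with HTSeq-count. Their methods name bbduk as the trimmer and their processing notes list Trim Galore. The deposited values are raw counts per gene, whole numbers without normalization, in 17 files of 1 library and 2 tables of 9 libraries. Tallies of uncounted reads, present in 26 libraries, were left out of the gene count totals and of the tests of genes. They were used only for the shares of reads not aligned to 1 place and of reads in no gene. No column was left unmatched to a sample.

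The members and all gene lists were chosen with earlier results of these data known. Counts were tested with edgeR 4.0.16 (R 4.3.3) by the quasi-likelihood test with filterByExpr and TMM factors, in each cross alone and, for Flcn/Tfe3, with the deposited table as a term. A gene was called at a Benjamini-Hochberg adjusted p under 0.05 over all genes tested. Differences of effects used 1 model over the groups of both crosses. Fold changes are log2 with 95% intervals from the SE (normal approximation). Shares and ratios were tested by exact permutation of libraries, within sets for Flcn/Tfe3 (scipy 1.17.1). Correlations used log2 CPM with 0.5 counts added, centred by group and set, and 100000 resamples within group and set. Genes named outside the 7 members were those called in any list, up to 4 of highest mean CPM per list, and the 10 most like the summed globins. List genes with an unadjusted p under 0.05 and defining genes at or near 0 were named after their values were seen, and values of some list genes are not reported here. The relation planned with Ahsp was not run. The scripts were tested on simulated counts. Alternatives were DESeq2 1.42.0, other scaling factors and filters, a replicate block and leaving out each library. The fits of set C alone, the difference between sets, the alpha to beta ratio and library totals without scaling factors were added after the data were seen. The labels call the libraries of a group biological replicates.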

Additional observations from a re-analysis of the deposited data

Results flagged for a closer look

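Bpgm was 22.7 CPM in Flcn/Tfe3 DKO replicate 2 of set B, apart from the other 5 libraries of its group, which held 35.2 to 40.2 CPM. The gap to the nearest of them was 0.712 of the group's range. The ratio of alpha to beta globin counts was 0.375 in Flcn/Tfeb DKO replicate 4, apart from the other 3 of its group at 0.299 to 0.307, with a gap of 0.894 of the range. Such gaps were looked for in 60 combinations of group and measure, and chance alone marks about 1 in 20.

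The effect of Flcn/Tfe3 DKO on the beta globins differed between sets C and B, by −1.74 on the log2 scale for Hbb-bs and −1.68 for Hbb-bt, both called by edgeR's quasi-likelihood test with trimmed-mean scaling (adjusted p = 0.0428 and 0.0429). Neither difference was called with library totals (edgeR adjusted p = 0.0566 for each), and leaving out single libraries ended the calls in 12 of 18 fits for Hbb-bs and 14 of 18 for Hbb-bt. Set C also had more genes called than set B. The deposited table, the mice and the libraries differ together between the sets and cannot be told apart.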

How the results depend on the processing

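In the 3 crosses and the 3 differences between crosses, no member was called under 140 of 141 alternatives, and the exception was set C alone, with 4. Leaving out each library in turn left 1 to 5 members called in set C alone (1 without Flcn/Tfe3 DKO replicate 10, and 2 without control replicate 4 or Flcn/Tfe3 DKO replicate 7, 8 or 9) and 0 to 4 for the difference between sets, which library totals took to 0. The replicate block changed no member's call: 0 members were called with it in all 3 crosses, and the genes called went from 62 to 48 for Flcn KO, from 0 to 0 for Flcn/Tfeb DKO and from 48 to 0 for Flcn/Tfe3 DKO. Same-numbered libraries did not deviate together (correlations from −0.375 to 0.328), so the numbers are not taken as pairs.

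No value was called in the fit where it changed sign, nor in the reported fit of all libraries it is set against. Under library totals the Flcn/Tfeb DKO values were −0.0070 for Hba-a1 and −0.037 for Hba-a2, and set B alone gave 0.19 for Hbb-bs and 0.017 for Hbb-bt. Leaving out each library in turn gave, for Flcn KO, −0.057 to 0.50 for Hba-a1 and −0.026 to 0.49 for Hba-a2, both negative without Flcn KO replicate 3. For Flcn/Tfeb DKO it gave −0.060 to 0.25 for Hba-a1, −0.030 to 0.20 for Hba-a2, −0.024 to 0.45 for Hbb-bs and −0.059 to 0.56 for Hbb-bt. For the Flcn/Tfeb DKO effect less the Flcn KO effect it gave −0.38 to 0.18 for Hba-a1, −0.40 to 0.12 for Hba-a2, −0.47 to 0.090 for Hbb-bs, −0.32 to 0.38 for Alas2 and −0.36 to 0.020 for Bpgm, and for the Flcn/Tfe3 DKO effect less the Flcn KO effect −0.0028 to 0.15 for Bpgm.

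For Flcn/Tfeb DKO less its controls, leaving out libraries gave −0.0346 to 0.0812 percentage points for the globin share (below 0 without Flcn/Tfeb DKO replicate 1), −1.05 to 2.88 points for the Hbb-bt share and −0.100 to 0.0396 for the alpha to beta ratio (above 0 without control replicate 3). The Hbb-bt share in the Flcn KO cross gave 1.86 to 3.65 points, with an exact permutation p of 0.0317 without control Flcn replicate 5 or without Flcn KO replicate 5. The globin share in the Flcn/Tfe3 cross gave −0.140 to −0.0628 points, and −0.54 on a log2 scale.

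Counts over all genes that moved by more than 1.5 times were 116 (DESeq2) and 95 (no filter) for Flcn KO, 93 (DESeq2) and 29 (set ignored) for Flcn/Tfe3 DKO, 8 (DESeq2) for Flcn/Tfeb DKO less Flcn KO, 13 (DESeq2) for Flcn/Tfe3 DKO less Flcn/Tfeb DKO, 937 (no filter) in set C alone, and 824 (DESeq2), 398 (no filter) and 0 (library totals) for the difference between sets. In set C alone DESeq2 lost Hba-a1 (adjusted p = 0.0622) and no filter added Alas2 (edgeR adjusted p = 0.0311). The cause of these changes was not tested. Low counts kept some genes of the lists out of the tests, whereas the globins were tested in every comparison. The part of depth in the globin values was not tested.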
